A study of Rattus norvegicus with 8 samples.

Results

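The ADAMTS proteases (a disintegrin and metalloproteinase with thrombospondin motifs) of the rat Achilles tendon were examined as 10 genes picked by name, Adamts1, Adamts2, Adamts3, Adamts4, Adamts5, Adamts7, Adamts8, Adamts9, Adamts12 and Adamts15. All 10 had a row among the 15590 genes of the deposited table. RNA had been sequenced from right Achilles tendons of wild-type male Sprague-Dawley (SD) rats aged 8 to 10 weeks, with 4 libraries from rats killed immediately after 1 h of uphill treadmill running (0 h p.r., post-running) and 4 from naïve controls that did not run (NC). Per the methods, all runners were exposed to airflow, and those that left the belt also met a weak electric stimulus. Running and this stimulation cannot be told apart. In the treadmill cohort that the methods describe, the controls were killed together with a group that had rested after its run, and time of day and running cannot be told apart if the sequenced rats followed that schedule. The sources used here do not say whether a library holds 1 rat or several, so the p-values measure the spread between libraries.

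ADAMTS proteases are secreted zinc enzymes that cut proteins of the extracellular matrix. They are made as inactive precursors, are trimmed by furin-type convertases, bind the matrix through thrombospondin repeats, are inhibited above all by TIMP3 and are cleared from the matrix through the receptor LRP1. Some members cut the large proteoglycans aggrecan and versican, which hold water between collagen fibers, and others remove the amino-terminal propeptide of new collagen. Members that include Adamts7 and Adamts12 bind and cut cartilage oligomeric matrix protein (COMP), an abundant tendon protein.

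The libraries held between 10660131 and 17464752 reads over the listed genes, recovered from the steps of the FPKM values (fragments per kilobase of gene length and per sequencing depth, further scaled between libraries). Mitochondrial messages, summed over 13 genes, were 31.1% of all FPKM in NC replicate 2, against 16.3% to 21.9% in the other libraries. All 6 tenocyte markers examined were detected, Tnmd at 87.0 to 348 FPKM and Scx at 20.5 to 53.5, and none passed the limma test between the groups (0 of 6 at an unadjusted p under 0.05, and 0 past both thresholds in voom on the recovered reads). Markers of other cell types differed in level between libraries. The summed FPKM of 6 adipocyte markers was 2380 to 4400 in NC against 780 to 1730 in 0 h p.r., and 4 of the 6 were lower past both thresholds. That of 5 cartilage markers was 7.45 to 88.4 against 89.8 to 366, with 0 of 4 tested past both thresholds in limma and voom and 3 at an unadjusted p under 0.05. That of 6 bone markers was 14.4 to 54.9 against 52.6 to 185, with all 5 tested fitted higher (median log2 difference 1.79), 4 at an unadjusted p under 0.05, 0 past both thresholds in limma and 1 in voom. Of the 5, Phex reached the 0.5 FPKM of the filter only in the runners (0.735 to 0.909, against 0.147 to 0.334 in NC), so its place among the tested genes depended on its higher group. The summed FPKM of 5 skeletal muscle markers was 3020 to 5130 in NC and ran from 778 in 0 h p.r. replicate 4 to 26400 in replicate 1. Endothelial, mural and macrophage markers overlapped in their sums between the groups (307 to 407, 1490 to 2550 and 100 to 199 FPKM over all libraries). Of these 3 lists 0 genes passed both thresholds in limma or voom, with 2 of 5, 1 of 6 and 1 of 6 at an unadjusted p under 0.05. The mural list includes Des, with 1360 FPKM in 0 h p.r. replicate 1 and 121 in 0 h p.r. replicate 4. Those libraries also had the highest and the lowest skeletal muscle sums, and the part of muscle in the mural sum was not tested. Over all tested genes in limma, 1.80% were higher and 0.894% lower past both thresholds. At an unadjusted p under 0.05 these shares were 11.4% and 11.2%. The part of these markers in the results on ADAMTS genes was not tested. In whole tendon, more RNA per cell and more cells of a type cannot be told apart.

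At rest, a procollagen enzyme had the highest mean level of the 10 members. Adamts2, which removes the amino-terminal propeptide of fibrillar procollagens, averaged 20.3 ± 3.48 FPKM in NC (SD, n = 4 for this and all later means). Adamts1 followed at 15.2 ± 9.95 and Adamts12 at 11.0 ± 2.19. In NC replicate 4, Adamts1 (29.9 FPKM) lay above Adamts2 (18.4). Adamts5, Adamts15 and Adamts9 lay close together at 8.86 ± 1.06, 8.05 ± 1.29 and 7.95 ± 1.84 FPKM, and Adamts4 lay at 5.17 ± 1.28. Among these 7 genes, neighbors in the order overlapped in range, although within each of the 4 NC libraries Adamts12 lay above Adamts5 and Adamts9 above Adamts4. Adamts7 (1.54 ± 0.391) and Adamts8 (1.13 ± 0.422) formed a lower pair, and Adamts3 was lowest at 0.327 ± 0.229 FPKM. These levels are per annotated gene length. How complete each gene model is was not checked, and comparisons between genes depend on it.

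After running the order was different. Adamts1 stood first at 127 ± 33.8 FPKM, and its lowest library lay above the highest of any other member. By mean, Adamts9 (40.9 ± 24.7) and Adamts4 (31.6 ± 14.2) came next, ahead of Adamts2 at 21.2 ± 5.98. Neighbors among these overlapped in range, and in 0 h p.r. replicate 4 Adamts2 (25.7 FPKM) lay above Adamts4 (14.6) and Adamts9 (8.10). The summed level of the 10 genes was 79.6 ± 15.5 FPKM in NC, compared with 244 ± 67.7 in 0 h p.r. Without Adamts1, Adamts4 and Adamts9 the sum was 51.3 ± 6.72 and 44.3 ± 6.08. Adamts1 made up 18.2 ± 8.33% of the sum in NC against 52.2 ± 2.59% in 0 h p.r., whereas the share of Adamts2 was 26.1 ± 5.54% and 9.77 ± 5.32%. These sums and shares are descriptions without a test.

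**Figure D1:**
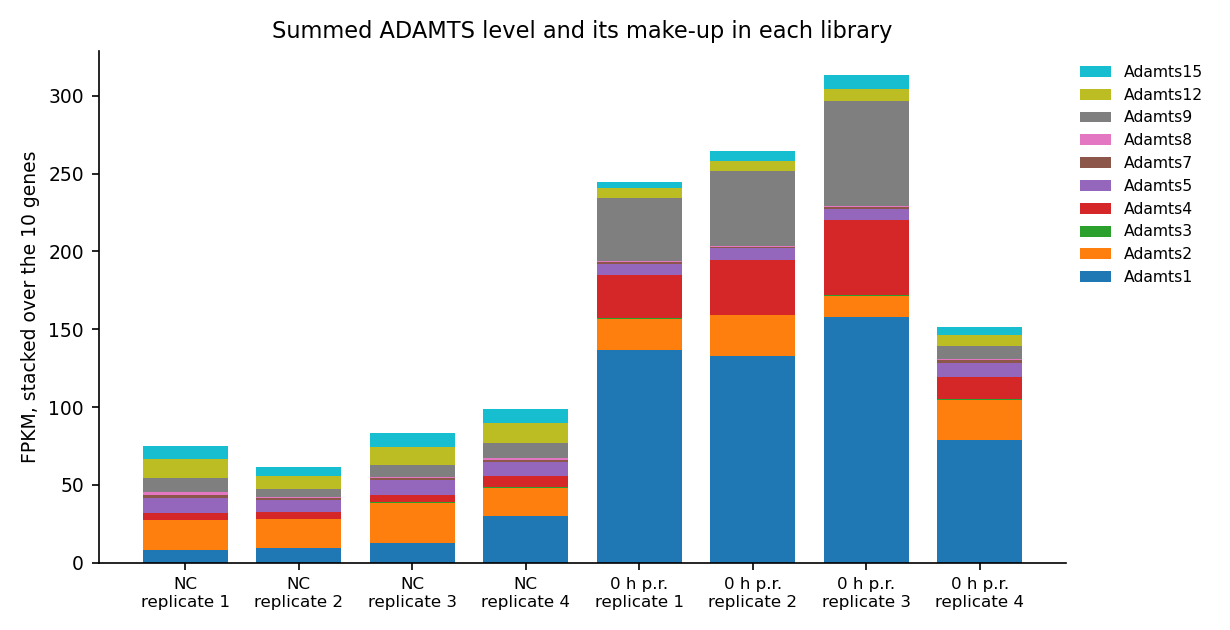
Stacked FPKM of the 10 ADAMTS genes in each library, with 4 NC bars on the left and 4 0 h p.r. bars on the right. The summed level was 61.8 to 98.7 in NC versus 152 to 314 in 0 h p.r., and the lowest segment, Adamts1, filled 50.4% to 55.9% of each 0 h p.r. bar.

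To determine which members differed between running and rest, each gene was tested in limma on log2(FPKM + 0.5), fitted over all 13863 genes that passed a filter on low values. Of the 10 members 9 were tested, and Adamts3 was under the filter. Past both thresholds (adjusted p under 0.05, and a level at least 2 times higher or lower) were 2 of the 9, Adamts1 and Adamts4, against 2.70% of all tested genes. Both were higher in 0 h p.r., where 1.80% of all tested genes passed, and no member was lower past both thresholds, where 0.894% of all tested genes passed. At an unadjusted p under 0.05, 3 members were higher and 1 was lower, against 11.4% and 11.2% of all tested genes. Voom on the recovered reads called 2 members higher and 0 lower, against 1.89% and 1.12% of all genes it tested. At any fold the same 2 members had an adjusted p under 0.05, against 5.72% of all tested genes. NC and 0 h p.r. ranges were separate for 3 members, Adamts1, Adamts4 and Adamts12, against 15.6% of all tested genes. The fitted difference was above 0 for 4 members and below 0 for 5, with a median of -0.20, where the median over all tested genes was -0.001.

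**Figure D2:**
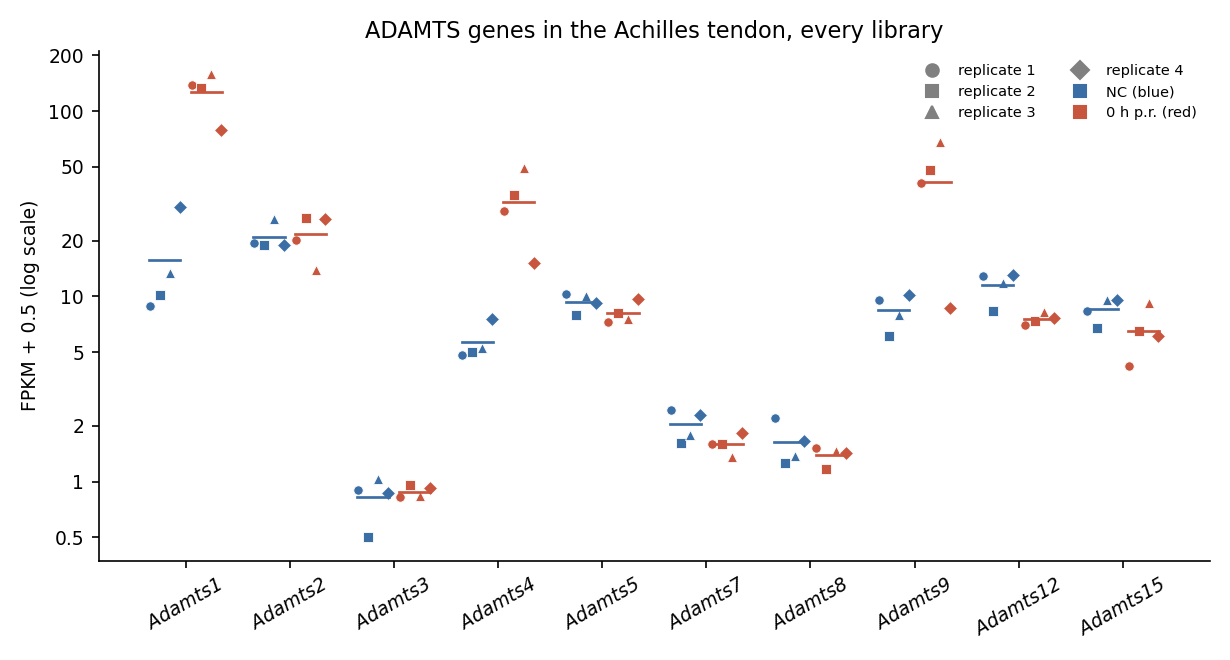
Level of each ADAMTS gene in every library, as FPKM + 0.5 on a log scale, with NC in blue, 0 h p.r. in red, a symbol for each replicate and a line at the group mean. The red and blue points are apart for Adamts1, Adamts4 and Adamts12, and for Adamts9 the 0 h p.r. replicate 4 lies among the NC points at 8.10 FPKM.

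The 6 members known to cut proteoglycans were considered first. Past both thresholds, 2 of them were higher, against 1.80% of all tested genes, and 0 were lower, against 0.894%. Adamts1 (ENSRNOG00000001607), which cuts aggrecan and versican and was first described as an inflammation-inducible gene, had 8.32, 9.73, 12.9 and 29.9 FPKM in NC replicates 1 to 4 against 137, 133, 158 and 78.8 in 0 h p.r. replicates 1 to 4. Every runner lay above every control, although NC replicate 4 was highest at rest and 0 h p.r. replicate 4 lowest after running. The difference was 3.15 on the log2 scale (SE 0.378, 95% interval 2.30 to 4.01, limma adjusted p 0.00329), an 8.91-fold rise, which rested on 424 to 1955 reads per NC library and 6267 to 10653 per 0 h p.r. library. Without NC replicate 4 the difference was 3.53. Adamts1 passed both thresholds in all 8 fits that each omitted one library (adjusted p 0.00134 to 0.0163).

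Adamts4 (ENSRNOG00000003538), an aggrecanase that also cuts versican, had 4.32, 4.51, 4.76 and 7.07 FPKM in NC against 28.2, 34.9, 48.7 and 14.6 in 0 h p.r. Again the groups were apart, with replicate 4 the highest of the controls and the lowest of the runners. The log2 difference was 2.40 (SE 0.328, 95% interval 1.66 to 3.14, limma adjusted p 0.00599), a 5.29-fold rise. It passed in all 8 fits that omitted a library (adjusted p 0.000825 to 0.0258). The ratio of Adamts4 to Adamts5, the other main aggrecanase, was 0.443 to 0.812 in NC versus 1.60 to 6.94 in 0 h p.r.

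Adamts9 (ENSRNOG00000023257), a versican-cutting member, had 9.10, 5.59, 7.44 and 9.69 FPKM in NC against 40.5, 47.7, 67.5 and 8.10 in 0 h p.r. Replicates 1 to 3 of the runners were far above all controls and replicate 4 lay inside the control range. With all libraries weighted equally, Adamts9 did not pass (log2 difference 1.98, SE 0.560, 95% interval 0.72 to 3.25, limma adjusted p 0.0730), whereas with array weights on all libraries it passed (2.19, adjusted p 0.0126). Omitting 0 h p.r. replicate 4 gave a difference of 2.63 with an adjusted p of 0.00102, and in the other 7 fits that omitted a library the adjusted p was over 0.05 (up to 0.188). That library had 1166 reads of Adamts9, and the other runners had 4293 to 6892. The same library had the lowest summed skeletal muscle markers of the 8 (778 FPKM) and the highest summed cartilage (366) and bone markers (185), and their part in its Adamts9 level was not tested. In log2 deviations from the group means, Adamts9 followed Adamts4 with a Pearson's r of 0.92 over the 8 libraries, and Adamts1 followed Adamts4 with 0.76. These are descriptions of 2 groups of 4 libraries that share their depth and scaling.

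**Figure D3:**
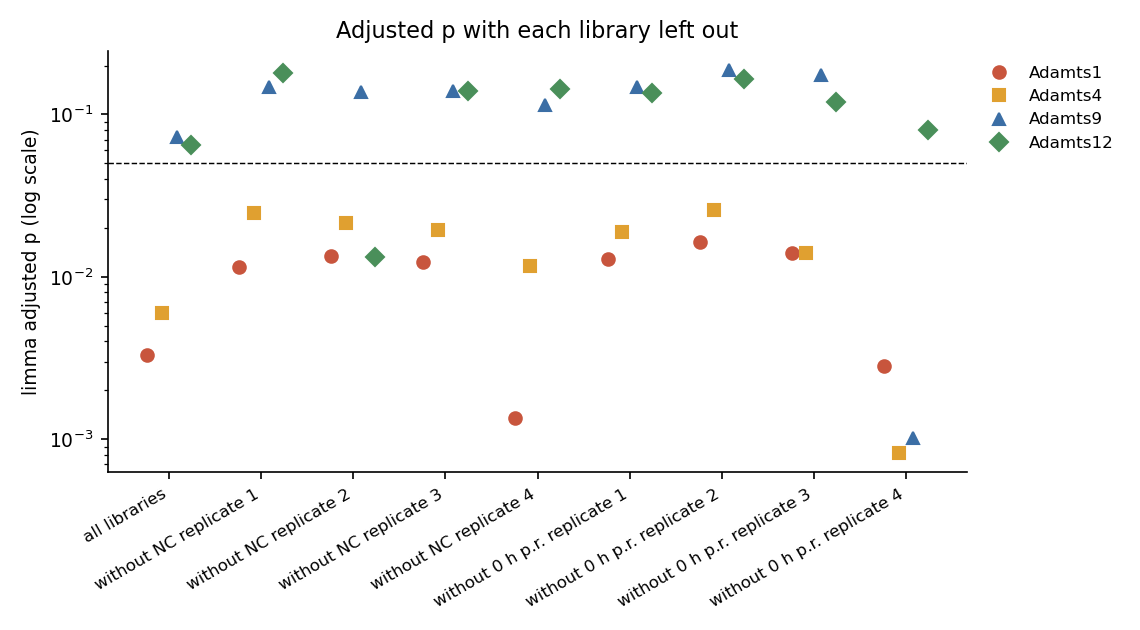
Limma adjusted p (log scale) of 4 ADAMTS genes with all libraries and with each library omitted, against a dashed line at 0.05. Adamts1 and Adamts4 stay below the line throughout, Adamts9 falls to 0.00102 without 0 h p.r. replicate 4, and Adamts12 to 0.0132 without NC replicate 2.

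The upstream sequences of these 3 genes are shown because their levels were the highest after running. RefSeq promoter windows on build GRCr8, another build than the Rnor_6.0 of the expression data, were matched by symbol for 7 of the 10 members, and the 250 bases before the annotated start were used, written 5′ to 3′ on the strand of the gene. A set of 7 short motifs were searched on both strands, namely the AP-1 site TGANTCA, the cyclic AMP response element TGACGTCA and its short form TGACG, the hypoxia core ACGTG, the TATA box TATAAA, the CCAAT box CCAAT and the GC box GGGCGG, of which TGACG lies within TGACGTCA. Capitals mark matches. The windows are chr11:38427385-38427634 (minus strand) for Adamts1, chr13:86202761-86203010 (plus strand) for Adamts4 and chr4:127019877-127020126 (minus strand) for Adamts9.
Adamts1: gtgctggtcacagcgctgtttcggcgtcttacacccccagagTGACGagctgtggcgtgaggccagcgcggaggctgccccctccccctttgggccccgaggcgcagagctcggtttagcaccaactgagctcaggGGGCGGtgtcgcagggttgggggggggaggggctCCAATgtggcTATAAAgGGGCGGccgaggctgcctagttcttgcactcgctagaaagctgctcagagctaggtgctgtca
Adamts4: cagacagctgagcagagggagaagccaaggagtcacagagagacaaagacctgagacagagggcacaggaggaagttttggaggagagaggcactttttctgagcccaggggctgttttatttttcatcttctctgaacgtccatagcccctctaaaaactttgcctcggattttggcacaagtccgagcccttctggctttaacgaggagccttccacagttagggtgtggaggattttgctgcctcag
Adamts9: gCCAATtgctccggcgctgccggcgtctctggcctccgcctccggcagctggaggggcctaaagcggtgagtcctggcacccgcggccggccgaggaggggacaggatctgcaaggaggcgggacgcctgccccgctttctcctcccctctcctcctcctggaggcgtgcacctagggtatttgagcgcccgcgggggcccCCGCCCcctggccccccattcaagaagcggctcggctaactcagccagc

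The Adamts1 window held the short cyclic AMP form 208 to 204 bases before the start, a motif found in 19.0% of the 27457 gene windows of this length, and a TATA box 70 to 65 bases before the start, found in 13.1%. It also held a CCAAT box (34.3% of all windows) and GC boxes (32.4%). The Adamts9 window held a CCAAT box and, on the opposite strand, a GC box, and the Adamts4 window held none of the 7 motifs. Windows of other members held the same letters. The short cyclic AMP form was also in Adamts3, the TATA and CCAAT boxes in Adamts7, and GC boxes in Adamts2 and Adamts3. No window of the 7 members held the AP-1 letters, found in 6.36% of all windows, or the full cyclic AMP element, found in 1.70%. The windows differed in base composition, with 65.2% G and C in Adamts1, 51.2% in Adamts4 and 71.6% in Adamts9, where the median window had 52.0%. A match is a description of letters and no match says only that these letters are not in the window.

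The remaining proteoglycan-cutting members did not follow. Adamts5 (ENSRNOG00000057794), a major aggrecanase of cartilage, had 9.76, 7.43, 9.53 and 8.71 FPKM in NC versus 6.76, 7.63, 7.02 and 9.12 in 0 h p.r., ranges that overlapped. Its log2 difference was -0.20 with a 95% interval of -0.52 to 0.11 (limma adjusted p 0.439), so a rise of the size of Adamts1 or Adamts4 lay outside the interval. Adamts5 is the next protein-coding gene to Adamts1 on chromosome 11 in the RefSeq annotation of GRCr8. Adamts8 (ENSRNOG00000005574) had 0.768 to 1.71 FPKM in NC against 0.675 to 1.02 in 0 h p.r., on only 23 to 92 reads per library (log2 difference -0.20, 95% interval -0.66 to 0.27, limma adjusted p 0.643). Adamts15 (ENSRNOG00000009892), its direct neighbor on chromosome 8, had 7.86, 6.29, 9.02 and 9.03 FPKM in NC versus 3.72, 6.02, 8.76 and 5.60 in 0 h p.r. Its runners lay below all controls except replicate 3 (log2 difference -0.43, 95% interval -0.96 to 0.09, limma adjusted p 0.314).

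**Figure D4:**
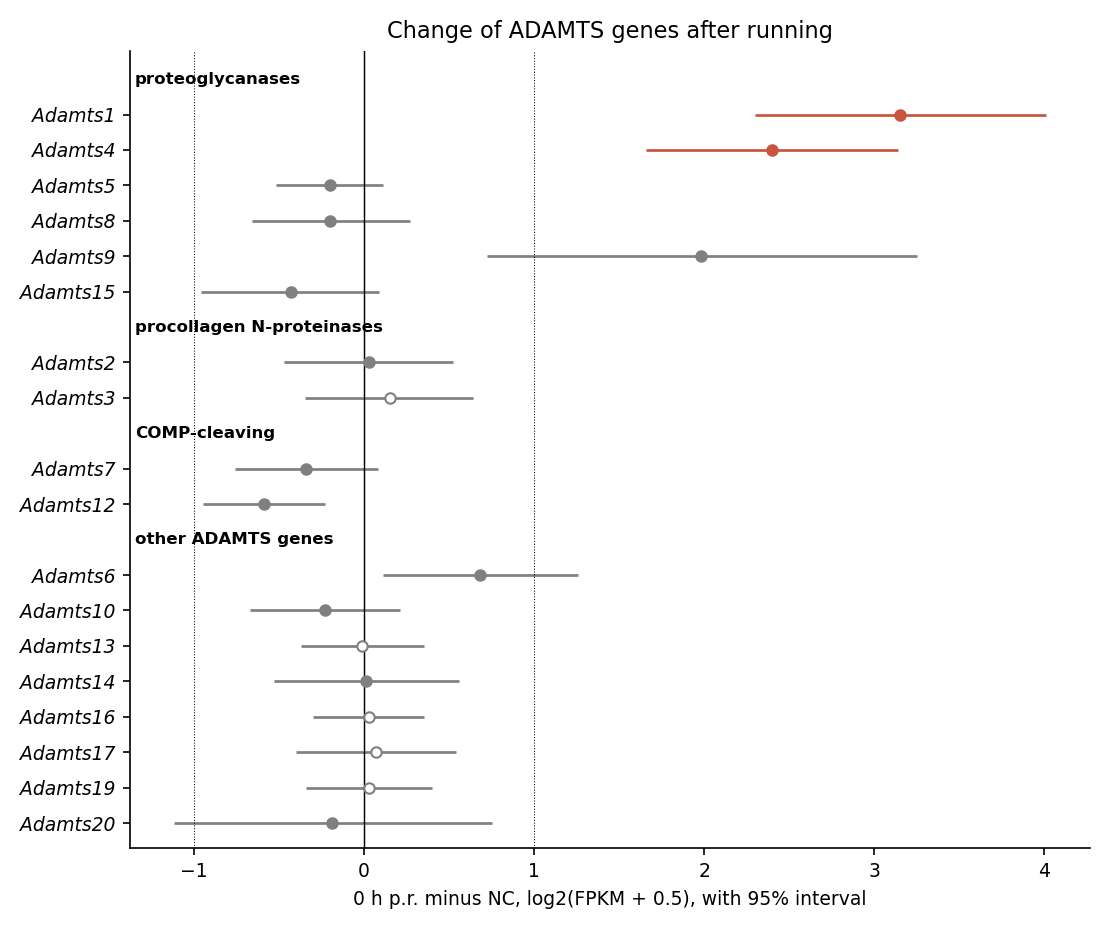
Log2 difference of 0 h p.r. minus NC with its 95% limma interval for the 10 members and 8 other ADAMTS genes. The members are grouped by known role, and the other genes are not sorted by role. Red points passed both thresholds, open points were under the filter and come from the fit without one, and dotted lines mark a fold of 2. Among the proteoglycanases, Adamts1 and Adamts4 lie at 3.15 and 2.40 and Adamts5 at -0.20.

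The procollagen N-proteinases were next. Adamts2 (ENSRNOG00000061484) had 18.9, 18.5, 25.5 and 18.4 FPKM in NC against 19.6, 26.0, 13.4 and 25.7 in 0 h p.r., with no side for either group. Its log2 difference was 0.03 (95% interval -0.47 to 0.52, limma adjusted p 0.964) and turned to -0.04 with quantile normalization. Adamts3 (ENSRNOG00000027463), which also activates the lymphatic growth factor VEGF-C, was listed at 0 in NC replicate 2 and at 0.368 to 0.536 FPKM in the other controls, against 0.323 to 0.460 in 0 h p.r. These values rest on at most 35 reads per library. In the limma fit without the filter its difference was 0.15 (95% interval -0.35 to 0.64, adjusted p 0.762).

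Adamts12 and Adamts7, the 2 members listed here as cutting COMP, had lower mean levels after running, without passing. Fitted differences were also below 0 for 6949 of the 13863 tested genes. Adamts12 (ENSRNOG00000018865) had 12.4, 7.88, 11.3 and 12.6 FPKM in NC versus 6.54, 6.90, 7.74 and 7.14 in 0 h p.r. All 4 runners lay below all 4 controls, by a narrow gap to NC replicate 2. The log2 difference was -0.59 (SE 0.159, 95% interval -0.95 to -0.23), a 1.5-fold lower level with a limma adjusted p of 0.0648. The adjusted p was 0.0132 without NC replicate 2 and 0.0798 to 0.179 without any other single library, and with array weights on all libraries it was 0.00528 (log2 difference -0.70). The difference stayed under a fold of 2 in all of these fits. Adipocyte markers were also lower in all 4 runners, and their part in this value was not tested. Adamts7 (ENSRNOG00000028036) had 1.93, 1.12, 1.29 and 1.80 FPKM in NC against 1.09, 1.10, 0.855 and 1.34 in 0 h p.r., ranges that overlapped (log2 difference -0.34, 95% interval -0.76 to 0.08, limma adjusted p 0.327). The Comp gene, named after its values were seen, had 697 to 953 FPKM in NC against 964 to 2050 in 0 h p.r. These ranges did not overlap, as for 15.6% of all tested genes. Comp did not pass (log2 difference 0.67, limma adjusted p 0.167).

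Of 9 further ADAMTS genes, 8 had a row and 4 were tested. None passed in limma or in voom, where 2.70% of all tested genes passed in limma. Adamts6 alone had an unadjusted p under 0.05, against 11.4% of all tested genes on the higher side. Adamts6 showed the largest difference among them, with 1.15 to 2.07 FPKM in NC versus 1.72 to 4.42 in 0 h p.r. (log2 difference 0.68, limma adjusted p 0.152). Adamts10, which acts on fibrillin microfibrils, was the most abundant of them at 10.5 to 16.1 FPKM in NC against 8.58 to 14.6 in 0 h p.r. (log2 difference -0.23, limma adjusted p 0.542). Adamts20 was low in both groups (-0.19, limma adjusted p 0.851), and its sign turned without NC replicate 3 or without 0 h p.r. replicate 4. Adamts14, named after its values were seen, had 0.633 to 1.55 FPKM in NC and 0.959 to 1.83 in 0 h p.r. Its log2 difference was 0.01 (limma adjusted p 0.983). These further genes were not sorted by role, so the role groups above cover the 10 members alone.

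The proteins that ADAMTS proteases act on, and those that act on them, were read from lists of 43 tested genes that include the further ADAMTS and ADAMTS-like genes. Past both thresholds were 4 of the 43, of which 3 were higher and 1 was lower, against the 2.70% of all tested genes. Their median difference was 0.17 on the log2 scale.

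None of the 7 tested proteoglycan and link protein genes passed, although all 7 fitted differences were above 0 (median 0.68), as were 6914 of the 13863 genes tested, and 3 had an unadjusted p under 0.05 in limma, against 11.4% of all tested genes on the higher side. Voom also called 0. Acan, which encodes aggrecan, had 8.82, 3.90, 28.5 and 21.8 FPKM in NC versus 23.8, 44.8, 55.4 and 130 in 0 h p.r., with an overlap of 1 runner and 1 control (log2 difference 2.06, SE 0.652, limma adjusted p 0.0998). Its highest value was in 0 h p.r. replicate 4, the runner with the lowest Adamts1, Adamts4 and Adamts9. Hapln1, the link protein that fixes aggrecan to hyaluronan, averaged 5.93 ± 3.69 FPKM in NC against 19.4 ± 12.8 in 0 h p.r., with ranges that overlapped (log2 difference 1.63, limma adjusted p 0.0935). Vcan, which encodes versican, had 5.55 to 10.2 and 9.88 to 24.1 FPKM (log2 difference 0.91, limma adjusted p 0.101). The summed cartilage markers were higher in every runner than in every control, but Acan is one of them. In 0 h p.r. replicate 3 the sum was 89.8 FPKM, of which Acan was 55.4. In NC replicate 4 it was 88.4, of which Acan was 21.8, so the separation of the sums is not independent of Acan. The part of the cartilage markers in these values was not tested.

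Of 12 procollagen and other substrate genes, Thbs1 alone passed both thresholds, against 1.80% of all tested genes on the higher side and 0.894% on the lower. At an unadjusted p under 0.05 in limma, 4 were higher and 1 was lower, against 11.4% and 11.2% of all tested genes. Thbs1, which encodes thrombospondin-1, had 48.8, 37.6, 69.7 and 74.0 FPKM in NC versus 125, 238, 130 and 208 in 0 h p.r. All runners were above all controls, and it rose by 1.59 on the log2 scale (SE 0.280, limma adjusted p 0.0159). Omitting either NC replicate 1 (adjusted p 0.0561) or 0 h p.r. replicate 2 (0.0518) ended the call, as did scaling every library to the same FPKM sum (0.0901), the replicate block (0.0531) and the test against a fold of 1.5 (0.266). The basement membrane gene Nid1 (log2 difference -0.70, limma adjusted p 0.0220) and Vegfc (0.62, adjusted p 0.0363) had an adjusted p under 0.05 at a fold under 2, and these 2 were named after their values were seen. Fn1 (1.01, adjusted p 0.265) and Col2a1 (2.75, adjusted p 0.161) did not pass, and the Col2a1 difference was 1.76 on omitting NC replicate 2 and 3.48 on omitting 0 h p.r. replicate 3. The procollagen genes that Adamts2 serves in tendon, Col1a1, Col1a2 and Col3a1, differed by 0.05, 0.13 and 0.03 on the log2 scale, and were named after their values were seen.

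Of 5 tested genes listed as inhibitors, Timp1 rose and Timp4 fell past both thresholds, against 1.80% and 0.894% of all tested genes. Timp2 (0.17, limma adjusted p 0.721, named after its values were seen), Timp3 and Reck did not pass. At an unadjusted p under 0.05 in limma, 2 of the 5 were higher and 1 was lower, against 11.4% and 11.2% of all tested genes. Which of the listed inhibitors act on Adamts1 or Adamts4 was not tested. Timp3, the chief inhibitor of ADAMTS proteases, was abundant at 510, 398, 468 and 491 FPKM in NC against 412, 545, 765 and 694 in 0 h p.r., and the groups overlapped (log2 difference 0.34, 95% interval -0.16 to 0.83, limma adjusted p 0.413). Timp1 had 62.9, 104, 64.3 and 86.0 FPKM in NC versus 110, 215, 202 and 211 in 0 h p.r. (log2 difference 1.20, limma adjusted p 0.0320), and passed in 3 of the 8 fits that omitted a library, those without NC replicate 2, 0 h p.r. replicate 1 or 0 h p.r. replicate 4 (0.0568 to 0.104 in the other 5). It did not pass with every library scaled to the same FPKM sum (adjusted p 0.0778) or in the test against a fold of 1.5 (0.792). Timp4 had 104, 123, 60.4 and 80.6 FPKM in NC against 22.4, 30.7, 25.6 and 40.0 in 0 h p.r. It fell by 1.60 on the log2 scale (SE 0.248, limma adjusted p 0.00915), with all runners below all controls, and passed in all 8 such fits (up to 0.0359), but not in the test against a fold of 1.5 (0.152). The adipocyte markers were lower in the same 4 libraries, and their part in the Timp4 value was not tested. Reck, a membrane-bound inhibitor, had a difference of 0.66 (limma adjusted p 0.214).

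Among 10 tested genes for maturation, cofactors and uptake, Sdc4 alone passed both thresholds, against 1.80% of all tested genes on the higher side and 0.894% on the lower. At an unadjusted p under 0.05 in limma, 2 were higher and 1 was lower, against 11.4% and 11.2% of all tested genes. Sdc4, which encodes the cell surface proteoglycan syndecan-4, had 25.2, 22.6, 30.5 and 36.0 FPKM in NC versus 93.9, 105, 74.9 and 131 in 0 h p.r., and the groups were far apart. It rose by 1.80 (95% interval 1.35 to 2.25, limma adjusted p 0.00226) and passed in all 8 fits that omitted a library (up to 0.0138). Furin, the convertase that removes the ADAMTS propeptide, had 19.4 to 29.9 FPKM in NC against 34.8 to 39.3 in 0 h p.r., with groups that did not overlap and no pass (log2 difference 0.50, limma adjusted p 0.0826). The related convertases Pcsk5 (0.97, adjusted p 0.359) and Pcsk6 (0.67, adjusted p 0.244) and the receptor gene Lrp1 (0.11, adjusted p 0.883) did not pass in limma. The Pcsk5 difference was 0.34 when 0 h p.r. replicate 4 was omitted.

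**Figure D5:**
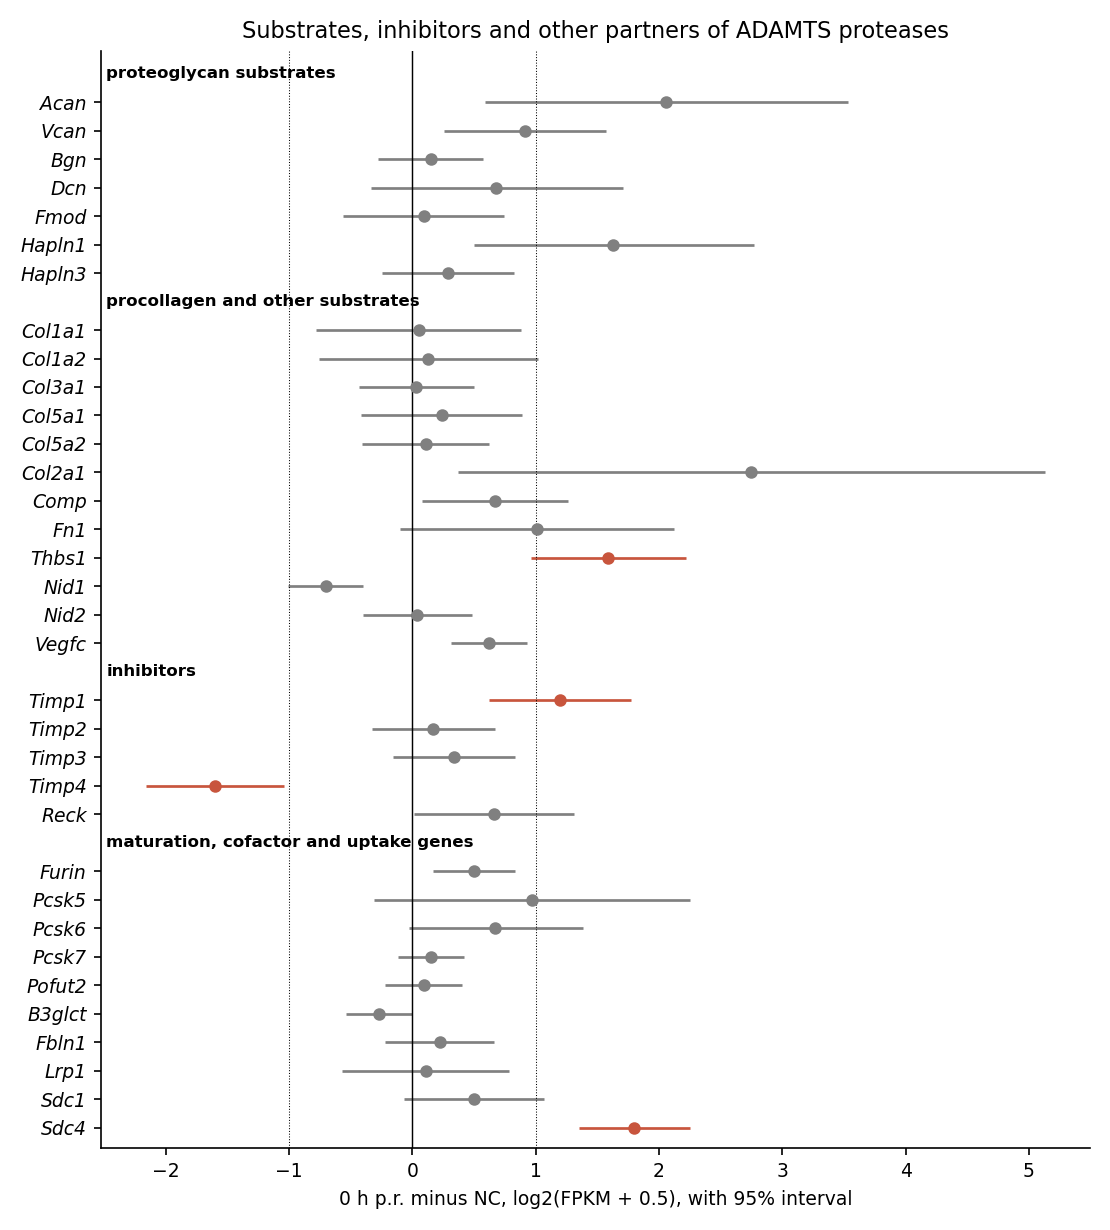
Log2 difference of 0 h p.r. minus NC with its 95% limma interval for tested genes listed as substrates, inhibitors and processing or uptake genes. Red points passed both thresholds, with Thbs1 at 1.59, Timp1 at 1.20, Timp4 at -1.60 and Sdc4 at 1.80, and dotted lines mark a fold of 2.

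The genes whose pattern was most like that of the members that rose were found from Pearson's r of log2(FPKM + 0.5) over the 8 libraries, as a description. For Adamts1 these were Myocd (0.991), Slc20a1 (0.991), Slc35e4 (0.990), Azin1 (0.989) and Rel (0.988). For Adamts4 they were Ptpn12 (0.995), Rgs16 (0.994), Bcl3 (0.992), Ddx3x (0.992) and Hif1a (0.992). Since these 10 genes were chosen for likeness to 2 genes that rose, their high r and their own difference between the groups were largely fixed by the choice. Hif1a, which encodes the oxygen-regulated subunit of hypoxia-inducible factor 1, averaged 35.0 ± 3.20 FPKM in NC versus 76.8 ± 11.3 in 0 h p.r., and Rel, an NF-kB subunit gene, 1.23 ± 0.557 and 4.65 ± 0.669. Adamts1 and Adamts4 correlated with each other at 0.97, and at 0.76 in deviations from the group means. Both were taken as members that rose, so the 0.97 was also largely fixed by that choice.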

How the data were processed

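Polyadenylated RNA of 8 Achilles tendon libraries was compared, 4 NC and 4 0 h p.r., grouped by their titles. Per the labels and the methods of the study, the authors aligned stranded reads to Rnor_6.0 with HISAT2 2.1.0, counted them with featureCounts 1.6.3 and normalized with DESeq2 1.30.1. The authors deposited FPKM values, which were also scaled between libraries. Their own fold changes and p-values stand in the same table and were not used.

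Genes reaching an FPKM of 0.5 in 4 or more of the 8 libraries (13863 of 15590) were transformed to log2(FPKM + 0.5) and fitted with limma 3.58.1 in R 4.3.3 (lmFit, eBayes with trend), as a test of both directions, without covariates, with Benjamini-Hochberg adjustment over all tested genes. Differences on this scale understate the change of low genes. Whole reads were recovered for 99.99% of the genes within 0.03 of a read (Python 3.11.15, numpy 2.4.6). Recovery and fit were tested on simulated data.

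The members, lists and naming rule were chosen with earlier results of these data known. All 10 members were named. From the partner lists, genes past both thresholds, the 3 largest differences per list, Acan, Vcan, Timp3, Furin and Lrp1 were named (others are marked in the text), and for likeness the 5 highest correlations. Alternatives were pseudocounts of 0.1 and 1, other filters, scalings and weights, a replicate block, omission of each library, other thresholds, protein-coding genes alone, and voom on the recovered reads.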

Additional observations from a re-analysis of the deposited data

Results flagged for a closer look

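In 5 of the 62 groups of 4 libraries examined (31 genes in 2 groups), a single library stood apart from the other 3 by a gap that took more of the group's range than Dixon's 95% critical value allows, where chance flags about 1 in 20 groups. Adamts2 in NC was 25.5 FPKM in replicate 3 against 18.4 to 18.9 in the others. Adamts4 in NC was 7.07 FPKM in replicate 4 against 4.32 to 4.76. Papln in 0 h p.r. was 7.80 FPKM in replicate 3 against 6.05 to 6.35. Timp1 in 0 h p.r. was 110 FPKM in replicate 1 against 202 to 215, in the library with the highest summed skeletal muscle markers. Pcsk5 in 0 h p.r. was 25.9 FPKM in replicate 4 against 3.21 to 5.55. The Adamts9 level of that same library, 8.10 FPKM, was not flagged, since the other 3 runners were themselves spread from 40.5 to 67.5. The flags fell in 5 different libraries.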

How the results depend on the processing

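The count of members past both thresholds was 2 in every alternative except array weights and the omission of 0 h p.r. replicate 4, where Adamts9 joined and it was 3. The count over all genes, 374, was 793 with the adjusted p alone, 60 in a test against a fold of 1.5, 166 with every library scaled to the same FPKM sum, and 195 to 516 when single libraries were omitted (217 on omitting NC replicate 1, 195 for 0 h p.r. replicate 2 and 201 for 0 h p.r. replicate 3). That scaling also moved the split from 250 higher and 124 lower to 129 and 37. The count of partner genes, 4, was 2 with that scaling, 1 in the test against a fold of 1.5 and 2 to 4 when single libraries were omitted, the lowest on omitting either NC replicate 1 or 0 h p.r. replicate 2. The sign of Adamts2 (0.03) turned with quantile normalization (-0.04) and array weights (-0.01) and ranged from -0.09 to 0.22 when libraries were omitted. That of Lrp1 (0.11) turned with the same alternatives (-0.03 and -0.10) and ranged from -0.12 to 0.25, and that of Adamts20 ranged from -0.52 to 0.09. The causes were not tested. With the replicate number as a block, Adamts1 (limma adjusted p 0.0278) and Adamts4 (0.0335) passed, Thbs1 did not (0.0531), and 212 genes passed in all. Same-numbered libraries deviated together with r between -0.141 and 0.072, and none of the 4 NC libraries correlated best with its own number, so the numbers were not taken as pairs. Adamts3 and Adamts8 are limited by depth, with 0 to 35 and 23 to 92 reads per library.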

Other observations

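The ADAMTS-like genes encode relatives that keep the thrombospondin repeats but lack the protease domain, and bind microfibrils and matrix. Of 6 listed, 5 had a row and were tested, and 0 passed in limma, at an unadjusted p under 0.05 or in voom. Over all tested genes, 2.70% passed both thresholds in limma. Adamtsl4, which binds fibrillin and was named after its values were seen, was the most abundant at 15.3 to 32.0 FPKM in NC and 17.5 to 29.1 in 0 h p.r. (log2 difference -0.16, limma adjusted p 0.761), and its mean in NC, 26.4 FPKM, lay above that of Adamts2, although NC replicate 2 had more Adamts2. Papln had 5.20 to 11.1 FPKM in NC and 6.05 to 7.80 in 0 h p.r. (-0.32, adjusted p 0.446). Adamtsl2 (-0.22, adjusted p 0.741) and Adamtsl5 (0.17, adjusted p 0.817) overlapped between the groups.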
